A study of Mus musculus with 4 samples.

Results

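The genes described are 10 of 21887 protein-coding genes in the RefSeq table for mouse build GRCm38.p6, whose coordinates are those of mm10. They are 3 Notch receptors (Notch1, Notch2 and Notch3), 5 ligands (Dll1, Dll3, Dll4, Jag1 and Jag2) and 2 transcriptional effectors (Hes1 and Hes5). They were chosen by name as core Notch pathway genes, and all 10 were found in the table. The peaks described are those of the deposited CTCF peak lists that lay in a gene or within 100 kb of it, 40 of 25625 peaks in the list from the medial ganglionic eminence (MGE) and 76 of 31886 in the list from the telencephalon. Every count below is of peaks or genes in these lists.

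The assay was ChIP-seq, in which chromatin bound by CTCF is pulled down with an antibody and sequenced. It was run on mouse tissue labelled embryonic day 13.5, from the MGE, a ventral forebrain zone that produces cortical interneurons, and from the telencephalon, the forebrain region to which the MGE belongs. Each tissue had 1 CTCF library and 1 input library, and the inputs are not analysed here. The labels give no strain, genotype, sex or number of embryos, and their dissection text names the MGE for all samples. The MGE libraries were made with another kit than the telencephalon libraries, so tissue and kit cannot be told apart. The lists' track names end in p01 (MGE) and p001 (telencephalon), and the telencephalon name begins with e14. Their meaning is not stated, so a difference in calling threshold or stage cannot be told apart from tissue either. The labels do not say whether the telencephalon tissue included the MGE. With 1 library per tissue there is no replicate and no test, the depth is unknown, and the 95% intervals given (exact, Clopper-Pearson) cover counting error only. A peak in bulk tissue does not show which cells carried it, and peak lists hold no expression with which the tissue labels could be checked.

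CTCF binds DNA through zinc fingers and, together with cohesin, marks many loop anchors and borders of chromatin domains. In the Notch pathway, ligands on the surface of a cell bind receptors on its neighbours. The receptor is then cut by Adam10 and by gamma-secretase, and its intracellular part enters the nucleus, where it joins Rbpj and Mastermind-like proteins and switches on Hes1 and Hes5. Hes proteins repress proneural genes and keep radial glia of the developing forebrain undifferentiated, while differentiating neighbours present the ligand Dll1.

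No peak of either list overlapped the 250 bases before an annotated start site of 9 members, the RefSeq promoters used. Peaks came closest at Dll1, Dll3, Jag1 and Jag2, where at least 1 list had a peak within 1 kb of that stretch. These stretches are shown because they are the member start sites with the closest peaks. They are written 5′ to 3′ along the gene from RefSeq GRCm38.p6, and capitals mark the letters AGGNGGC on the written strand or, as GCCNCCT, on the other strand. These letters are the most constant part of the known CTCF consensus.
Dll1 (chr17:15376933-15377182, minus strand): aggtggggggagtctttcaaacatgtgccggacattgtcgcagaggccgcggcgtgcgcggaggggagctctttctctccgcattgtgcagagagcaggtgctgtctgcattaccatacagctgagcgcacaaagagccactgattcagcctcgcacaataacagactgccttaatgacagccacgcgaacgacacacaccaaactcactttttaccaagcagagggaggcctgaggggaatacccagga
Dll3 (chr7:28301786-28302035, minus strand): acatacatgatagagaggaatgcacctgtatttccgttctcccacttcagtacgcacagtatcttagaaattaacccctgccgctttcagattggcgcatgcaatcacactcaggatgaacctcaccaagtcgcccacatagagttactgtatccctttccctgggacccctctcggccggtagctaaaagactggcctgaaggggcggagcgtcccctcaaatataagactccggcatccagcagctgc
Jag1 (chr2:137116521-137116770, minus strand): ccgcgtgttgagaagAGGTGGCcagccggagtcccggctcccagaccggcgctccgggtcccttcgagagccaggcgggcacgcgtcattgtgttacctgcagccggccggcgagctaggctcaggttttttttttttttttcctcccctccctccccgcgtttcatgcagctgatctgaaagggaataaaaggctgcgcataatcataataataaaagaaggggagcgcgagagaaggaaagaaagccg
Jag2 (chr12:112929496-112929745, minus strand): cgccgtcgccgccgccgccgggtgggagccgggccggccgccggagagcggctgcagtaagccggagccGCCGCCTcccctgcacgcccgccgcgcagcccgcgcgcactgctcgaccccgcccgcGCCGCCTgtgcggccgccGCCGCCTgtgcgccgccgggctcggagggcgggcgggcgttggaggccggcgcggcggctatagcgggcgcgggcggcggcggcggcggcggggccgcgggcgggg
Jag1 held the letters at 1 position and Jag2 at 3 positions, and the stretches of Dll1 and Dll3 held none. Of the 10 member stretches (Dll1 has 2), 5 held the letters, and 25.0% of 32851 RefSeq stretches of this length did. Jag2 also had the highest content of G and C among the 10 stretches, 87.2%, and Dll3 the lowest, 52.0%. A match is a description of letters and not a bound site, and the sequences under the peaks themselves were not read.

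Around the 10 genes nearly all MGE peaks had a telencephalon partner, whereas fewer than 1 in 2 telencephalon peaks had an MGE partner. Sharing means here that peaks from both lists have 1 bp or more in common. In the MGE list 36 of 40 peaks were shared (90.0%, interval 76.3 to 97.2%), against 58.4% of all MGE peaks and 66.8% of MGE peaks in or within 100 kb of any protein-coding gene. In the telencephalon list 36 of 76 peaks were shared (47.4%, 35.8 to 59.2%), against 47.0% of all telencephalon peaks and 48.2% of those near protein-coding genes. The telencephalon share therefore lay at the background and the MGE share above it. The 36 pairs matched one to one, their midpoints lay a median of 44.25 bp apart, against 47.5 bp over all shared pairs, and at most 182 bp apart. All 4 MGE peaks without a partner lay around the Jagged ligands, 3 at Jag1 and 1 at Jag2.

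Receptors had 12 MGE peaks, all shared, and 25 telencephalon peaks, of which 12 were shared. Ligands had 20 MGE peaks with 16 shared and 38 telencephalon peaks with 16 shared. Effectors had 8 MGE peaks, all shared, and 13 telencephalon peaks with 8 shared. At 9 of 10 genes the MGE list held fewer peaks than the telencephalon list, and Jag1 was the exception. The MGE list is also the shorter one, 25625 against 31886 peaks. The share of all protein-coding genes with fewer MGE peaks was not computed, so the count is not shown to be particular to these genes. A gene window held a median of 4 MGE peaks and 7 telencephalon peaks, against 3 and 5 over all protein-coding genes. All 10 genes had a peak from each list in this window, as did 84.6% of protein-coding genes (90.5% for the MGE list and 88.9% for the telencephalon list). No member was without peaks from either list, against 5.19% of genes, or had peaks from the MGE list alone (5.94%) or the telencephalon list alone (4.26%).

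**Figure D1:**
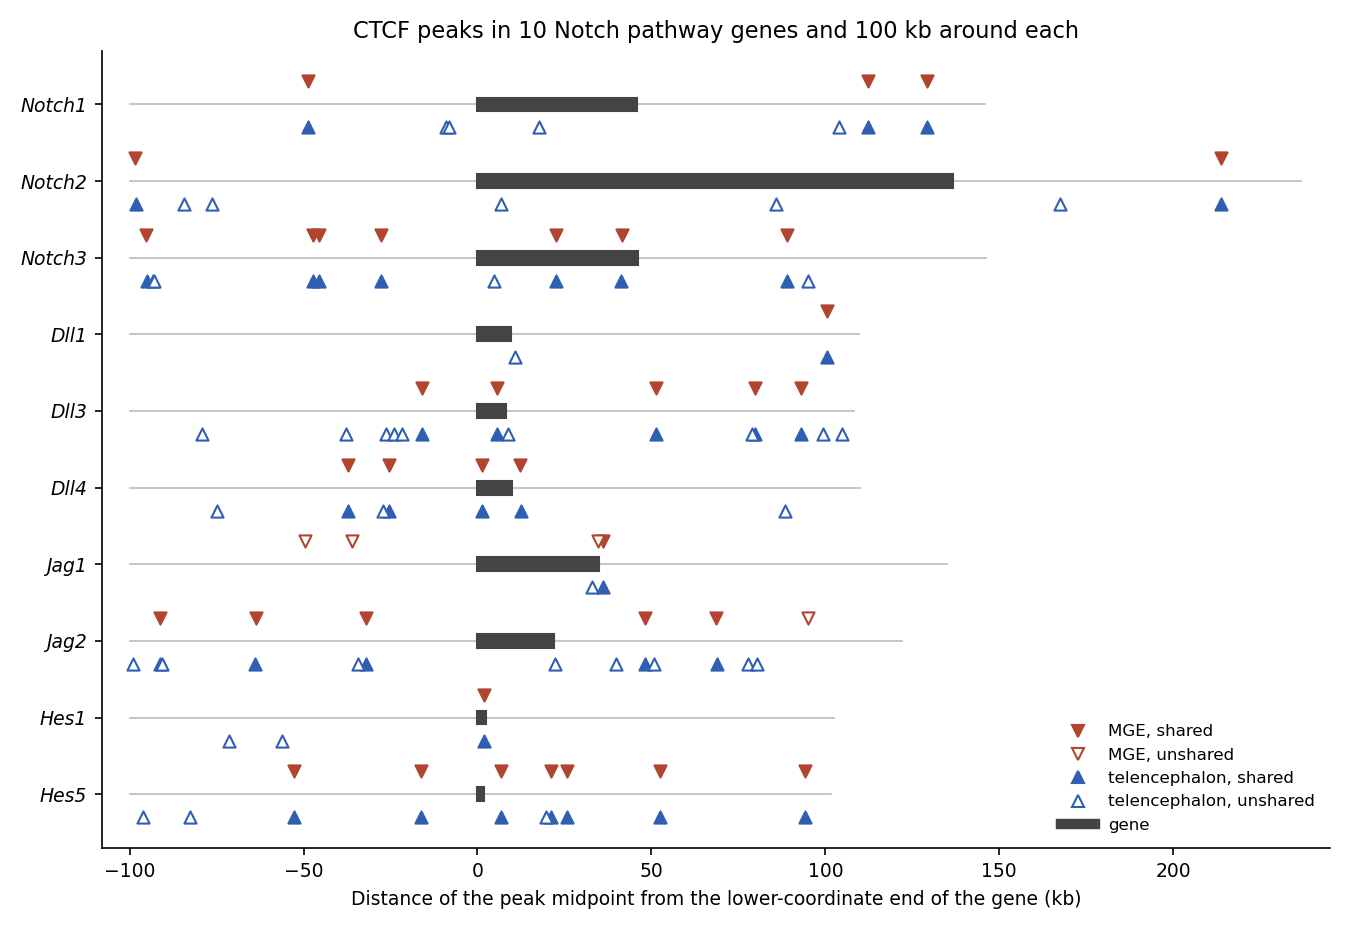
Positions of CTCF peaks in the 10 genes and within 100 kb of each. The x axis gives the distance of the peak midpoint from the lower-coordinate end of the gene in kb, the dark bar is the gene, MGE peaks stand above each line and telencephalon peaks below it, and filled symbols are shared by at least 1 bp. Open MGE symbols occur at Jag1 (3) and Jag2 (1), and open telencephalon symbols occur at all 10 genes.

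**Figure D2:**
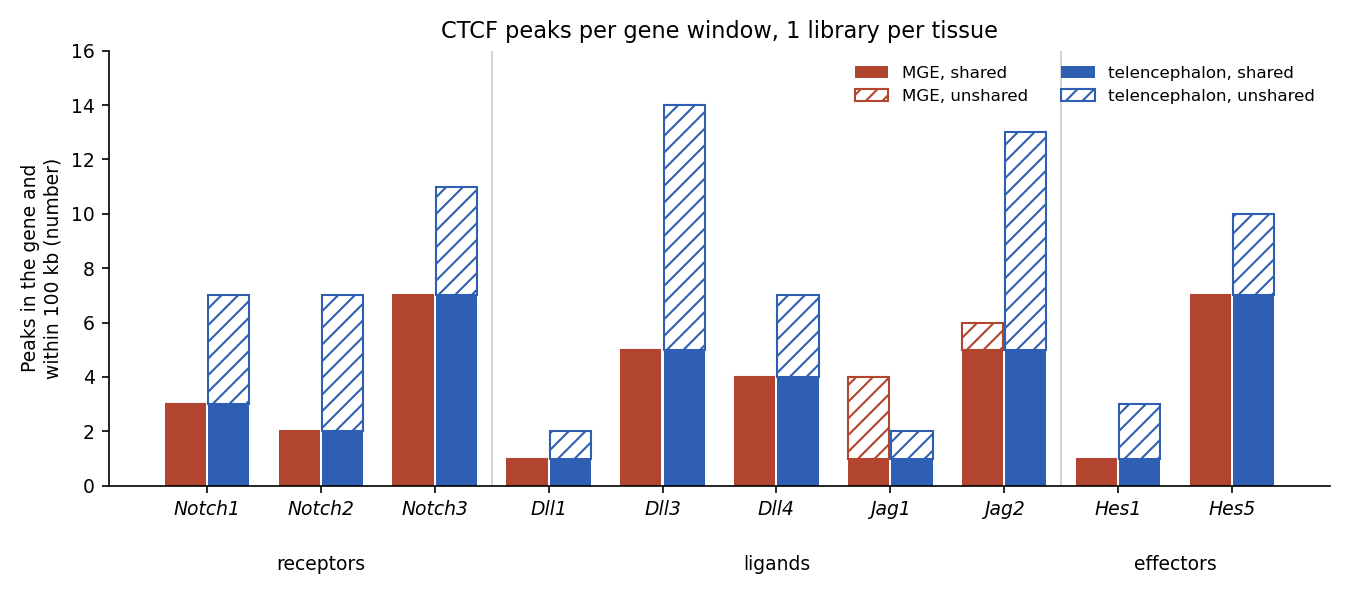
Number of peaks in each gene and within 100 kb of it, with MGE bars left of telencephalon bars and 1 library per tissue. Solid parts are shared peaks and hatched parts unshared ones. Jag1 has 4 MGE and 2 telencephalon peaks, and Dll3 has the most telencephalon peaks, 14, against 5 in MGE.

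Among the receptors, Notch3 was the one with CTCF peaks inside the gene in both lists, and Notch1 and Notch2 had them in the telencephalon list alone. Notch3 (chr17:32120820-32166896), which is expressed in neural progenitors and in mural cells of blood vessels, held 2 MGE peaks and 3 telencephalon peaks. The peak nearest its start site lay at chr17:32162022-32162458 in MGE and at chr17:32162075-32162325 in telencephalon, 4432 and 4565 bp downstream of the start. A further shared peak lay 23331 bp downstream in MGE (chr17:32143168-32143559) and 23379 bp downstream in telencephalon (chr17:32143046-32143511). The telencephalon peak without a partner (chr17:32125490-32125685) was 196 bp wide and lay toward the end of the gene. Within 100 kb Notch3 had 7 MGE peaks and 11 telencephalon peaks, and all 7 MGE peaks were shared. The widest of them in MGE, 693 bp (chr17:32073303-32073995), lay 46825 bp from the gene beside another shared peak at chr17:32075134-32075575, and both lay between genes with Rrp1b as the nearest. A shared peak also overlapped Hsf2bp (chr17:32025419-32025679 in MGE), 95141 bp from Notch3.

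Notch1 (chr2:26457902-26503822), a main receptor of radial glia, had no MGE peak in the gene or within 10 kb and 3 telencephalon peaks there. One telencephalon peak was inside the gene (chr2:26475409-26475608, 200 bp), 28214 bp downstream of the start. The others lay 8955 bp (chr2:26448778-26448947, 170 bp) and 7956 bp (chr2:26449498-26449946, 449 bp) past its end, toward Sec16a. The nearest MGE peak lay 48412 bp from the gene, overlapped Inpp5e (chr2:26408907-26409490, 584 bp), and was shared. On the other side of Notch1 the first shared peak was 66247 bp away (chr2:26570069-26570318 in MGE), toward Egfl7, and a further one overlapped Egfl7, a gene of endothelial cells (chr2:26586817-26587258). All 3 MGE peaks within 100 kb of Notch1 overlapped a telencephalon peak, and 4 of its 7 telencephalon peaks had no MGE partner.

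Notch2 (chr3:98013538-98150367), the longest of the 10 genes at 136830 bp, had 2 telencephalon peaks and no MGE peak inside it. The telencephalon peaks were at chr3:98020279-98020601 (323 bp), 6741 bp downstream of the start, and at chr3:98099359-98099570 (212 bp). The nearest MGE peak, 76861 bp past the end, overlapped Reg4 (chr3:98227228-98227585) and was shared. On the upstream side, a shared peak overlapping Sec22b lay 98119 bp away (chr3:97914972-97915419 in MGE). The pair flanks a stretch of 311808 bp that held no MGE peak and 5 telencephalon peaks, 167 to 323 bp wide.

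The Delta-like ligands ranged from sparse to dense. Dll1 (chr17:15367354-15376932), the ligand of differentiating neural cells, had 1 MGE peak and 2 telencephalon peaks within 100 kb. Its sole MGE peak, 90755 bp upstream (chr17:15467687-15468134, 448 bp), overlapped a telencephalon peak and lay nearest to Psmb1. The other telencephalon peak (chr17:15378042-15378191) lay 1110 bp upstream of the start and at 150 bp had the narrowest width of its list.

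Dll3 (chr7:28293555-28301785), a divergent ligand that does not activate Notch on neighbouring cells, carried the widest peak around any of the 10 genes in either list. That peak lay inside the gene, at chr7:28298804-28299565 (762 bp) in MGE and at chr7:28298818-28299506 (689 bp) in telencephalon. Its edge nearest the start lay 2220 bp downstream of it in MGE and 2279 bp downstream in telencephalon. A telencephalon peak of 165 bp (chr7:28302303-28302467), 518 bp upstream of the start, had no MGE partner, and the nearest MGE peak to it was the one inside the gene, 2738 bp away. In all, Dll3 had 5 MGE peaks and 14 telencephalon peaks within 100 kb. All 5 MGE peaks were shared, while 9 telencephalon peaks, 150 to 375 bp wide, were not. Shared peaks outside the gene lay at Eid2b (chr7:28277411-28277834 in MGE), 15721 bp away, and on the other side near Rps16, a ribosomal protein gene, and Plekhg2, 42916 and 71476 bp away.

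Dll4 (chr2:119325784-119335666), the Delta-like ligand of sprouting vessels, which is also expressed in some neural progenitors, had 4 MGE peaks and 7 telencephalon peaks within 100 kb. It was the only Delta-like gene with shared peaks both inside the gene and just past its end. The peak inside, at chr2:119326955-119327216 in MGE and chr2:119327011-119327160 in telencephalon, lay 1171 and 1227 bp downstream of the start. The midpoints of this pair coincided, although the MGE peak was 262 bp wide and the telencephalon peak 150 bp, the narrowest of its list. The peak past the end lay 2287 bp away in MGE (chr2:119337953-119338329) and 2255 bp away in telencephalon (chr2:119337921-119338444). Upstream, shared peaks stood 25399 bp away beside Vps18, a vesicle trafficking gene (chr2:119300074-119300385 in MGE), and 36928 bp away at Vps18 (chr2:119288358-119288856). Of the 3 unshared telencephalon peaks, that near Spint1 was the widest at 528 bp (chr2:119250603-119251130).

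Jag1 (chr2:137081451-137116520), a Jagged ligand of progenitor zones and vessels, was the only one of the 10 genes with more MGE than telencephalon peaks. It had 4 MGE peaks, of which 1 was shared, and 2 telencephalon peaks, of which 1 was shared. The shared peak lay just upstream of the start, 685 bp away in MGE (chr2:137117205-137117775, 571 bp) and 805 bp away in telencephalon (chr2:137117325-137117743, 419 bp). Inside the gene, the MGE list had a peak 323 bp downstream of the start (chr2:137115889-137116197, 309 bp) and the telencephalon list had one 2109 bp downstream (chr2:137114172-137114411, 240 bp). These peaks did not overlap and were 1478 bp apart, so each list placed its own peak in the first part of the gene. The MGE peaks flanked the 250 bases of the Jag1 promoter printed above, and the one within the gene lay 324 bp from them. The remaining MGE peaks, 35871 and 49537 bp past the end and overlapping Slx4ip (chr2:137045337-137045580 and chr2:137031671-137031914), both had a width of 244 bp, the narrowest of the MGE list. The nearest telencephalon peaks to them were 68592 and 82258 bp away.

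Jag2 (chr12:112907803-112929812), a Jagged ligand of many epithelia, had no peak inside the gene in either list. Within 100 kb it had 6 MGE peaks, 5 of them shared, and 13 telencephalon peaks, 5 of them shared. A telencephalon peak of 312 bp (chr12:112930065-112930376) lay 570 bp upstream of the start site that borders the printed stretch and 253 bp from the annotated gene. The nearest MGE peak to Jag2 was 26016 bp away and shared, and it overlapped Brf1, a gene for an RNA polymerase III factor (chr12:112955828-112956196). The MGE peak without a partner (chr12:113002523-113002932) was 410 bp wide, above the median of its list, and lay 14323 bp from the closest telencephalon peak. The widest unshared telencephalon peak of the whole set, 564 bp (chr12:112873295-112873858), stood 1798 bp from a shared peak between Jag2 and Gpr132 (chr12:112875656-112875909 in MGE).

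The effectors Hes1 and Hes5, basic helix-loop-helix repressors, had contrasting surroundings. Hes1 (chr16:30065357-30067796) had 1 MGE peak and 3 telencephalon peaks, and its shared peak lay within the gene near its upper end, at chr16:30067106-30067353 (248 bp) in MGE and chr16:30067085-30067456 (372 bp) in telencephalon. Its other telencephalon peaks lay 56032 and 71288 bp away in a region where Hes1 was still the nearest protein-coding gene (chr16:30009030-30009325 and chr16:29993886-29994069). Hes5 (chr4:154960626-154962372), the shortest gene at 1747 bp, had none inside but 7 MGE peaks and 10 telencephalon peaks within 100 kb, with all 7 MGE peaks shared. The nearest, at chr4:154967261-154967599 in MGE and chr4:154967210-154967490 in telencephalon, lay 4889 and 4838 bp past the gene and overlapped Pank4. On the upstream side the first shared peak lay 15944 bp away in MGE (chr4:154944307-154944682) and 15970 bp away in telencephalon (chr4:154944305-154944656), toward Tnfrsf14. A further 3 shared peaks overlapped Plch2, a phospholipase C gene.

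Shared peaks around these genes had larger median widths than unshared ones in both lists, as over the whole lists, where the medians were 345 bp shared and 244 bp unshared in MGE and 346 and 223 bp in telencephalon. In the MGE list the median width was 388 bp for 36 shared and 276.5 bp for 4 unshared peaks. In the telencephalon list the medians were 377.5 bp for 36 shared and 231.5 bp for 40 unshared peaks. Wide unshared telencephalon peaks did occur, since 14 of the 40 were wider than the list's median of 276 bp and 5 were at least 400 bp. The same shares over all unshared telencephalon peaks were not computed, so these counts are not shown to be particular to these genes. Among the MGE peaks no wider than that list's median of 300 bp, 8 of 10 were shared, against 35.8% of all such MGE peaks, and among wider ones 28 of 30 were, against 81.2%. For the telencephalon list the shares were 5 of 31 among peaks no wider than the median, against 22.9%, and 31 of 45 among wider peaks, against 71.3%. Narrow MGE peaks were few around these genes: 10 of 40 were no wider than the median, against 50.1% of the list, and 3 of 40 had its narrowest width of 244 bp, against 28.9%. Of the telencephalon peaks 31 of 76 were no wider than the median, against 50.2%, and 6 of 76 had the narrowest width of 150 bp, against 5.74%. Around 45 other genes of the pathway, described below, 34 of 217 MGE peaks had the narrowest width of 244 bp. Width shares over all peaks near protein-coding genes were not computed. The part of peak width in the MGE share was not tested beyond these classes.

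**Figure D3:**
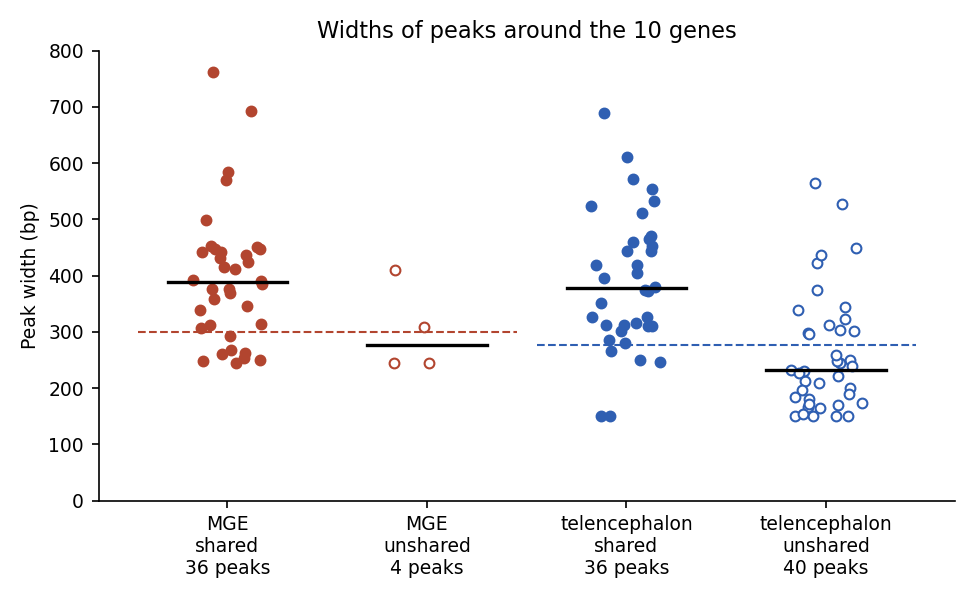
Width in bp of each peak in the 10 genes and within 100 kb, by list and sharing, with MGE at the left. Each point is a peak, black bars are medians and dashed lines are the medians of the whole lists (300 bp in MGE and 276 bp in telencephalon). Unshared telencephalon peaks reach down to 150 bp and up to 564 bp.

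At a limit of 10 kb on either side, 6 of 10 genes had an MGE peak and all 10 had a telencephalon peak. Over all protein-coding genes the shares were 51.3% for the MGE list and 61.3% for the telencephalon list. Notch3, Dll3, Dll4, Jag1, Hes1 and Hes5 had peaks from both lists (45.9% of protein-coding genes), and Notch1, Notch2, Dll1 and Jag2 had telencephalon peaks alone (15.4%). No member had MGE peaks alone (5.44%) or no peak at all (33.3%). Inside the gene, 5 of 10 members had an MGE peak, against 31.4% of all protein-coding genes, and 7 of 10 a telencephalon peak, against 39.1%. The 5 genes with both were Notch3, Dll3, Dll4, Jag1 and Hes1 (27.0%), Notch1 and Notch2 had telencephalon peaks alone (12.1%), and Dll1, Jag2 and Hes5 had neither (56.5%). None had MGE peaks alone inside the gene (4.45%). Within 1 kb of either gene end, Jag1 and Hes1 had a peak in both lists (10.5% of protein-coding genes), and Dll3 and Jag2 had a telencephalon peak alone (8.79%). The other 6 had none (79.1%), and no member had an MGE peak alone (1.58%). That makes 2 of 10 members in the MGE list, against 12.1%, and 4 of 10 in the telencephalon list, against 19.3%. Measured from the start sites of the 9 members with a RefSeq promoter, the nearest peak was a median of 6338 bp away in MGE and 1227 bp in telencephalon. Over 17492 protein-coding genes the medians were 22673 bp and 15302 bp. In the MGE list 4 of the 9 start sites lay farther from a peak than the median gene, those of Notch1, Notch2, Dll1 and Jag2, at 66247, 98119, 90755 and 26333 bp. In the telencephalon list Notch1 did so, at 28214 bp. Gene length was not matched in these shares. With 10 genes the intervals were wide, 26.2 to 87.8% for the 6 of 10 and 69.2 to 100% for the 10 of 10. In the MGE list the members' share was 60.0% against 63.3% of protein-coding genes at 20 kb, 80.0% against 80.3% at 50 kb and 100% against 90.5% at 100 kb.

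**Figure D4:**
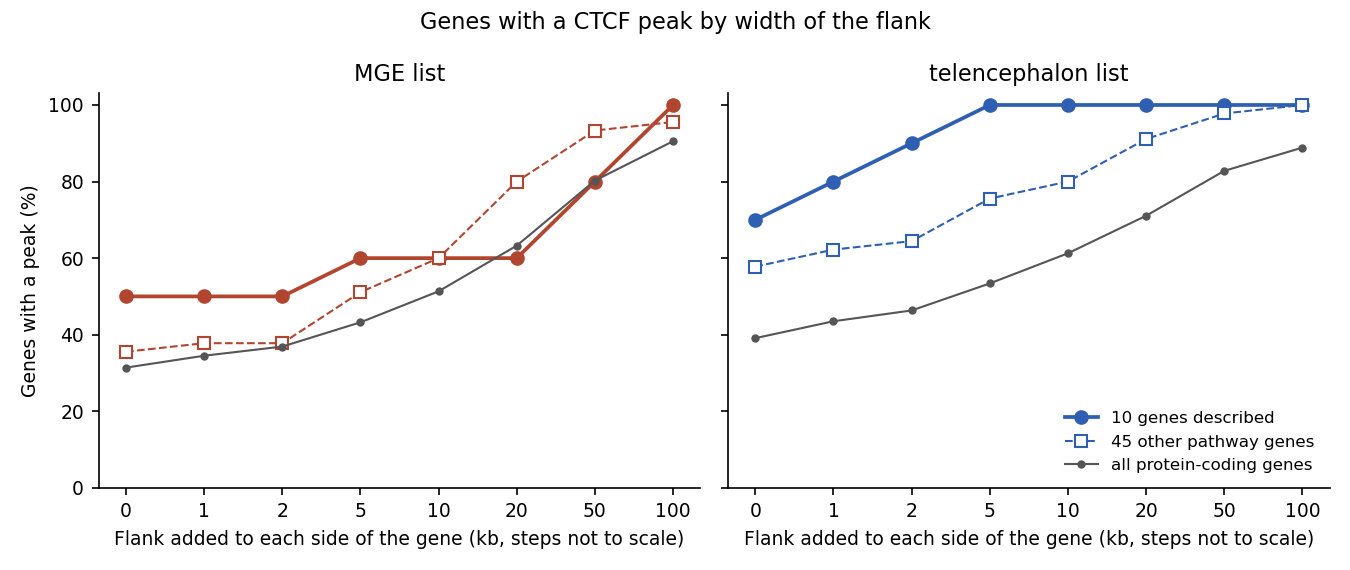
Percentage of genes with at least 1 peak in the gene or within a flank of the width on the x axis (kb, steps not to scale), for the MGE list at the left and the telencephalon list at the right. The members reach 60% at 5 kb in MGE and 100% at 5 kb in telencephalon, against 43.2% and 53.4% of all protein-coding genes.

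The spacing of shared peaks varied widely among the 10 genes. It was measured across each gene and so includes the gene's length, 136830 bp at Notch2. Shared peaks inside a gene were passed over, and Notch3, Dll3, Dll4 and Hes1 held such peaks. For those genes the distance is not a gap free of shared peaks. The nearest shared peaks outside a gene, one on each side, were 22578 bp apart at Hes5, 37567 bp at Dll4, 66866 bp at Dll3 and 79918 bp at Jag2, in MGE coordinates. They were 116516 bp apart at Notch3, 160578 bp at Notch1 and 311808 bp at Notch2. At Hes1, Jag1 and Dll1 they were 458942, 520351 and 562390 bp apart. The median over the 10 genes was 138547 bp, against 217441 bp over 21403 protein-coding genes, whose interquartile range was 101282 to 528580 bp. Within that range lay Notch3, Notch1, Notch2, Hes1 and Jag1, and below it lay Hes5, Dll4, Dll3 and Jag2. Dll1 lay above it, with the first shared peak on its lower side 462058 bp away. At Jag1 the spacing was one-sided, with a shared peak 685 bp from the upper end and the next 484598 bp from the lower end. Distances between peaks do not show loops or domains.

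**Figure D5:**
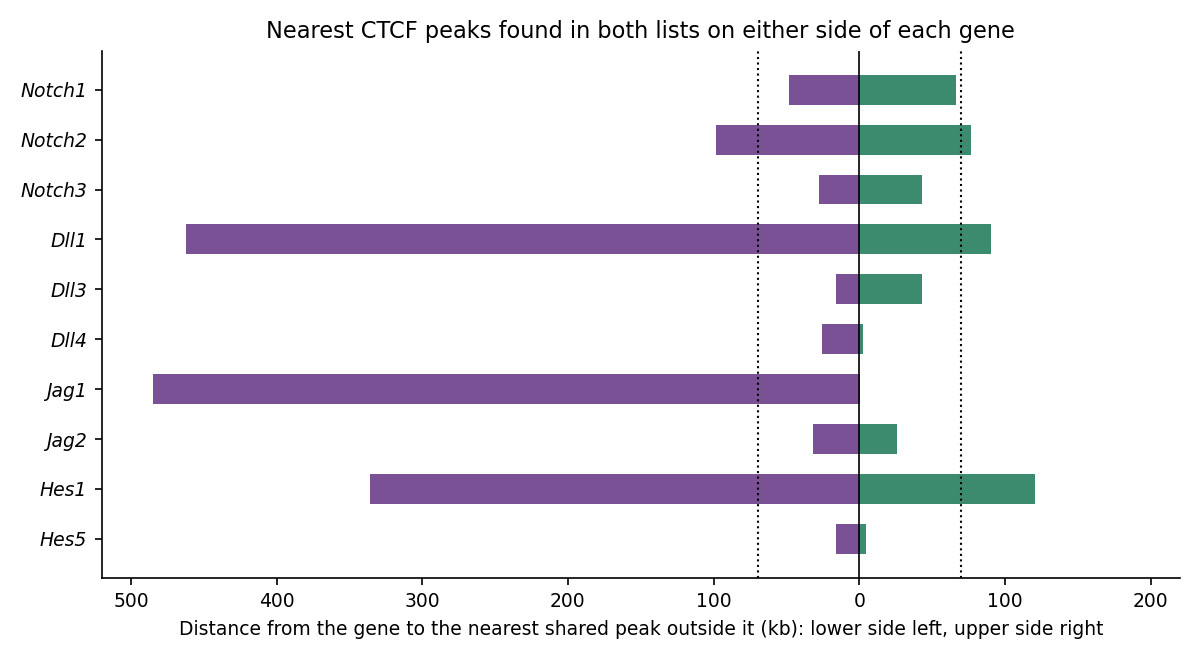
Distance in kb from each gene to the nearest peak outside it that was shared by both lists, on the lower-coordinate side to the left and on the upper-coordinate side to the right, in MGE coordinates. Dotted lines are the medians over protein-coding genes, 69249 bp below and 69827 bp above. Dll1, Jag1 and Hes1 have long lower-side distances of 462058, 484598 and 336195 bp.

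At the edge of the 100 kb window, the last peaks counted were a shared peak of Notch2 (98119 bp away in MGE and 98147 bp in telencephalon) and a telencephalon peak of Jag2 (98793 bp). The first peak left out was a shared one 101338 bp from Dll4 in MGE (101364 bp in telencephalon). Next came an unshared telencephalon peak 103425 bp from Hes5 and a shared peak 103660 bp from Hes5 in MGE.

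Other genes of the pathway, a list of 45, comprised regulators, processing enzymes, nuclear partners and targets. In their windows 181 of 217 MGE peaks were shared (83.4%, interval 77.8 to 88.1%), against 66.8% of MGE peaks near protein-coding genes. Of their telencephalon peaks 181 of 331 were shared (54.7%, 49.1 to 60.1%), against 48.2%. A peak within 1 kb of a gene end was found for 4 of 45 in MGE (8.89%), against 12.1% of protein-coding genes, and for 14 of 45 in telencephalon (31.1%), against 19.3%. All 4 were in both lists. Dner, which encodes a Delta-like transmembrane protein of neurons, had the widest of these in MGE, 553 bp (chr1:84697087-84697639), and 546 bp in telencephalon (chr1:84697085-84697630). Hes2 and Hes3, relatives of Hes1, and Bhlhe40, a related repressor, had the others (chr4:152157799-152158166, chr4:152285582-152285831 and chr6:108661461-108661866 in MGE). At Hes3 the telencephalon peak was 713 bp wide and the MGE peak 250 bp.

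The telencephalon list had gene-end peaks without MGE gene-end peaks at 10 of the 45 genes (22.2%), against 8.79% of protein-coding genes. These were Rbpj, the DNA-binding partner of the cleaved receptor, Maml2, a coactivator, Psen2, a gamma-secretase subunit, Adam17, a receptor protease, Neurl1a, Dtx1 and Dtx4, ubiquitin ligases, Nrarp, a feedback inhibitor, and Hes6 and Hey1, further basic helix-loop-helix genes. Dtx4 had such peaks at both ends (chr19:12466183-12466520 and chr19:12502053-12502355). The 11 peaks were 165 to 356 bp wide, and 7 of them were no wider than the list's median. Those at Rbpj (chr5:53658000-53658209) and Adam17 (chr12:21373397-21373710) were 210 and 314 bp wide, with the nearest MGE peaks 14050 and 54875 bp from them. The distance at Adam17 was the largest of the 11, and the smallest was 2112 bp, at Hey1. With the 10 kb limit, 27 of 45 had an MGE peak (60.0%, against 51.3% of protein-coding genes) and 36 of 45 a telencephalon peak (80.0%, against 61.3%). Numb, an inhibitor of Notch, was the only one of the 45 with an MGE peak and no telencephalon peak there. That is 2.22%, against 5.44% of protein-coding genes. The reverse was found for 10 of 45 (22.2%, against 15.4%).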

How the data were processed

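CTCF peak lists of 2 ChIP-seq libraries were used, 1 from MGE and 1 from telencephalon. Sonication gave fragments near 500 bp, per the labels' protocols. The submitters' processing notes name Bowtie2 (2.3.2), MACS2 (2.1.1.20160309) and mm10. The threshold and control of peak calling were not given in the sources used here. The authors' deposited files hold peak coordinates, with no score, fold, p-value or read count. Start positions were changed to 1-based.

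Only peaks on the autosomes (1 to 19), X and Y were kept, 25625 of 25710 in MGE and 31886 of 31979 in telencephalon. Gene positions came from a RefSeq table (GRCm38.p6) without exons, and start sites and strands from RefSeq promoters, which matched 9 of 10 members (not Hes1). A peak counted when it overlapped a window by 1 bp. Overlap functions were tested on simulated data. Python 3.11.15 with numpy 2.4.6, pandas 2.3.3 and scipy 1.17.1 was used. No genome sequence was used.

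The members, lists and measures were chosen with earlier results of these data known. All 10 members were named, and of the other pathway genes those with a gene-end peak. Neighbours named are the nearest protein-coding genes to shared peaks, at most 3 per member, of which 1 is not reported here; others (Sec16a, Spint1, Slx4ip and Numb) were named after their values were seen. Peaks are given with coordinates where they overlap a member, lie within 10 kb, or are the nearest or the widest, and others were added after their values were seen. Alternatives concerned windows, sharing rules, width limits and motif letters.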

Additional observations from a re-analysis of the deposited data

How the results depend on the processing

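The MGE share stayed above the telencephalon share under all alternatives tried. This order follows from the smaller number of MGE peaks in the windows. Both lists had the same number of shared peaks, except 36 in MGE and 38 in telencephalon with a partner within 1 kb. The shares over all peaks were not recomputed for the alternatives, so the MGE share was not set against its background there. The MGE share ranged from 85.0 to 91.7% and the telencephalon share from 46.1 to 57.8% with windows of 50 or 20 kb, an overlap of 50% of both peaks, a partner within 1 kb, the wider 50% of peaks, a telencephalon list as long as the MGE list, or no peaks of the narrowest width. Smaller windows held fewer peaks by construction: 26 MGE and 44 telencephalon peaks at 50 kb, and 12 and 23 at 20 kb. The wider 50% of peaks left 45 telencephalon peaks. Of the members, 6 in MGE and 8 in telencephalon had a gene-end peak with ends of 5 kb, 2 in telencephalon with ends of 500 bp, and 1 in MGE among the wider 50% of peaks. Of the other pathway genes, 16 in MGE and 25 in telencephalon had one with ends of 5 kb, 1 and 9 with ends of 500 bp, and 7 in telencephalon among the wider 50%. The 10 of 10 members with a telencephalon peak within 10 kb became 9 of 10 with the wider 50% of peaks or with a telencephalon list as long as the MGE list. For these counts of genes the shares over all protein-coding genes were not recomputed. Wider ends raise gene-end counts by construction, so the counts are not shown to be particular to these genes. The letters AGGGGGC were in 2 of the 10 promoter stretches, against 9.43% of all stretches, and the letters CCNNNAGG in 8, against 47.3%. No paired analysis was possible because each tissue had 1 CTCF library. Read depth is unknown, so a missing peak can lie below a list's calling limit.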
